A study of Mus musculus with 10 samples.

Results

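The comparison described here is the addition of a Usp17le expression plasmid to mouse embryonic stem cells that already carried a hairpin against Dux. It rests on 4 of the 10 sequenced libraries, 2 labelled Dux KD-Usp17le OE and 2 labelled Dux KD, taken by their labels, and on 14659 of 24370 gene entries, those that reached 0.5 scaled TPM in at least 2 of the 10 libraries. TPM is the number of reads per gene divided by gene length and brought to a fixed total, and scaled TPM is that value divided by the median ratio of the library to the geometric mean library. Dux KD cells were transfected with a short hairpin RNA against Dux and selected with puromycin, and the Dux KD-Usp17le OE cells are such cells that received the plasmid afterwards. The second pair of groups, used to ask whether the response depends on the hairpin, was Usp17le OE, which received the plasmid with puromycin selection, and WT, which was cultured without either. All labels give the line as J1, a mouse embryonic stem cell line, which every group shares, while the study's methods name another line for the transfections. No group with an empty plasmid was analysed here, so the effect of the Usp17le insert and the effect of a further transfection cannot be told apart. Nothing in the labels tells if both libraries of a group came from separate cultures, so the p-values reflect library-to-library spread alone, possibly technical.

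Usp17le belongs to a small family of deubiquitinases on mouse chromosome 7, enzymes that remove ubiquitin from other proteins. Dux is a homeobox transcription factor that switches on the genes of the 2-cell embryo, called 2C genes, as the embryonic genome becomes active. A small and changing share of embryonic stem cells passes through a 2-cell-like state in which Zscan4 and other 2C genes are transcribed, and Usp17l genes are themselves 2C genes. The question posed by the comparison is what the plasmid does to these genes when Dux has been lowered beforehand.

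The upstream sequences of 3 Zscan4 genes are shown because they are 2C genes at the centre of the result and differ in a stretch that resembles the sequence DUX binds. They are RefSeq sequences of build GRCm38.p6, written from 5′ to 3′ on the strand of the gene, all of them upstream of the annotated start, and the capitals mark the TGATTNAAT stretch and the TATAAA box.
Zscan4d, chr7:11166204-11166398, minus strand: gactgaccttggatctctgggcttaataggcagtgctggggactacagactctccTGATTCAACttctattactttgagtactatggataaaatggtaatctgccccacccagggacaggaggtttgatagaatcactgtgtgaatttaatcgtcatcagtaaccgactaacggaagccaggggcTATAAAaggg
Zscan4f, chr7:11397699-11397893, plus strand: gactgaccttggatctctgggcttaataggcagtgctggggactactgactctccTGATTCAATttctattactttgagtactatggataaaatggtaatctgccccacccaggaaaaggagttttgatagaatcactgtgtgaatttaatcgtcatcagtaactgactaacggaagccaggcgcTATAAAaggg
Zscan4c, chr7:11005506-11005700, plus strand: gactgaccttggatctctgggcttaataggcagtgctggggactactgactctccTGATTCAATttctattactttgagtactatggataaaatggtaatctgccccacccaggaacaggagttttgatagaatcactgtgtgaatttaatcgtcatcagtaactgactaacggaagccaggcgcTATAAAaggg
Over these 195 bases Zscan4f differed from Zscan4c at 1 base (99.5% identity) and Zscan4d from Zscan4c at 6 bases (96.9% identity). Counted from 1 at the first capital, the change within the 9 letters was T9C from Zscan4c to Zscan4d, so the letters TGATTNAAT are complete in Zscan4c and Zscan4f only among the 3. Searched on both strands in the 300 bases around each start, TGATTNAAT was found for 5 of the 26 2C genes with a promoter in the table (19.2%), against 0.718% of 32851 promoters overall. The 5 were Zscan4b, Zscan4c, Zscan4f, Gm4027 and AF067061, and only Zscan4f among them passed the test. Zscan4c and Zscan4f share nearly all of the sequence shown, and Zscan4b is of the same family, so the genes are not independent. The full 11-letter form, of which these 9 letters are the core, was found at 0 of the 26, against 0.0335% overall. That form is too rare overall for 26 promoters to show a difference. TATAAA was found at 9 of the 26 (34.6%, against 13.6% overall). Usp17lb, the Usp17l gene that passed the test, has TATAAA in capitals in the 100 bases before its start and no TGATTNAAT.
Usp17lb, chr7:104842584-104842683, minus strand: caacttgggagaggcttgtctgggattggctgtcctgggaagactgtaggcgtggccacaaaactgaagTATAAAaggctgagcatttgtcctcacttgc

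Read totals recovered from the table were 45708031 and 33948667 in Dux KD-Usp17le OE and 37706457 and 50457228 in Dux KD. Pearson's r across genes between the 2 libraries was 0.987 in both groups. Set against counting error, the 2 libraries differed more in Dux KD. The chi-square per degree of freedom was 10.1 there and 4.96 in Dux KD-Usp17le OE. Embryonic stem cell markers were abundant in all 4 libraries, with Pou5f1, the pluripotency factor, at 1698 and 1643 scaled TPM in Dux KD-Usp17le OE and 1676 and 1646 in Dux KD. The 12 fibroblast markers, which would show feeder cells, summed to 28.8 and 27.0 scaled TPM in Dux KD-Usp17le OE and 26.6 and 24.1 in Dux KD, most of it Thy1, and Lum and Fap were at 0 in all 4.

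Usp17le itself (chromosome 7, 104767961 to 104777470, protein coding), the gene carried by the plasmid, had 0.934 and 1.60 scaled TPM in Dux KD-Usp17le OE, against 0.440 and 0.384 in Dux KD. Both Dux KD-Usp17le OE libraries were above both Dux KD libraries, but the log2 change of 1.38 ± 0.39 (SE) did not pass (adjusted p = 0.0831), and its adjusted p was between 0.0656 and 0.321 under the alternatives tried. In the other pair, Usp17le OE had 29.96 and 35.2 scaled TPM, against 2.17 and 0.790 in WT. The levels of Usp17le RNA in Dux KD-Usp17le OE thus overlapped those of WT, and every direction given below is that of the libraries so labelled. Dux, the target of the hairpin, had 6 and 2 reads in Dux KD-Usp17le OE and 4 and 0 in Dux KD, too few to show a difference (log2 change 0.39, 95% confidence interval −0.76 to 1.53). WT libraries held 5 and 12 Dux reads, so that the RNA was near the limit of detection without the hairpin as well. Reads that map to several places were dropped by the authors, which lowers near-identical copies such as the Usp17l, Zscan4 and Dux genes by an unknown amount.

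Of the 5 Usp17l genes, 1 rose. Usp17lb had 2.05 and 1.84 scaled TPM in Dux KD-Usp17le OE, against 0.139 and 0.617 in Dux KD (log2 change 2.30 ± 0.42, adjusted p = 0.0252), close to the 2.16 and 2.15 of WT and far below the 67.5 and 69.6 of Usp17le OE. Its call was lost when either Dux KD-Usp17le OE library was left out, and its adjusted p was 0.164 at most over the alternatives. Usp17la had 0.242 and 0.652 scaled TPM in Dux KD-Usp17le OE, against 0.0369 and 0.164 in Dux KD (adjusted p = 0.0745). Usp17lc (0.825 and 0.827, against 0.748 and 0.0427) and Usp17ld (0.244 and 0.132, against 0.0596 and 0.0884) had positive differences that did not pass. Reads from sequences shared within the family map to several places and were dropped, so the plasmid's transcript may be counted only in part.

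Over all 14659 genes, 502 were higher in Dux KD-Usp17le OE than in Dux KD (3.42%) and 289 lower (1.97%) at an adjusted p under 0.05. The changes were small. The median log2 change was 0.42 among the higher and −0.21 among the lower genes, and with a fold above 2 added as a criterion 78 genes were higher and 1 lower. That 1 gene was Slc4a1, the anion exchanger of red blood cells, with 0.290 and 0.237 scaled TPM in Dux KD-Usp17le OE, against 0.794 and 0.764 in Dux KD. Its call was lost with only the compared groups in the fit, and when any single library of these groups was left out. The total of 791 calls depended on single libraries. It was 66 without Dux KD-Usp17le OE replicate 1, 145 without Dux KD-Usp17le OE replicate 2, 142 without Dux KD replicate 2 and 717 without Dux KD replicate 1. On TPM as deposited, where the median gene shifts by −0.10 on the log2 scale, 424 genes were higher and 1220 lower, so the balance of higher and lower calls rests on the scaling. Of 135 genes checked singly that passed the test, 22 passed it in every alternative and with every library left out: Gm2016, Gm5039, Gm5662, Gm8300, Zscan4d, Zscan4f, Id2, Plac8, Erdr1, Abracl, Med21, Bnip3, Mdm4, Cdkn1c, Egr1, Fos, D7Ertd143e, Rpph1, Snord2 and Snord35a among the higher, H2-M5 and Nid1 among the lower.

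**Figure D1:**
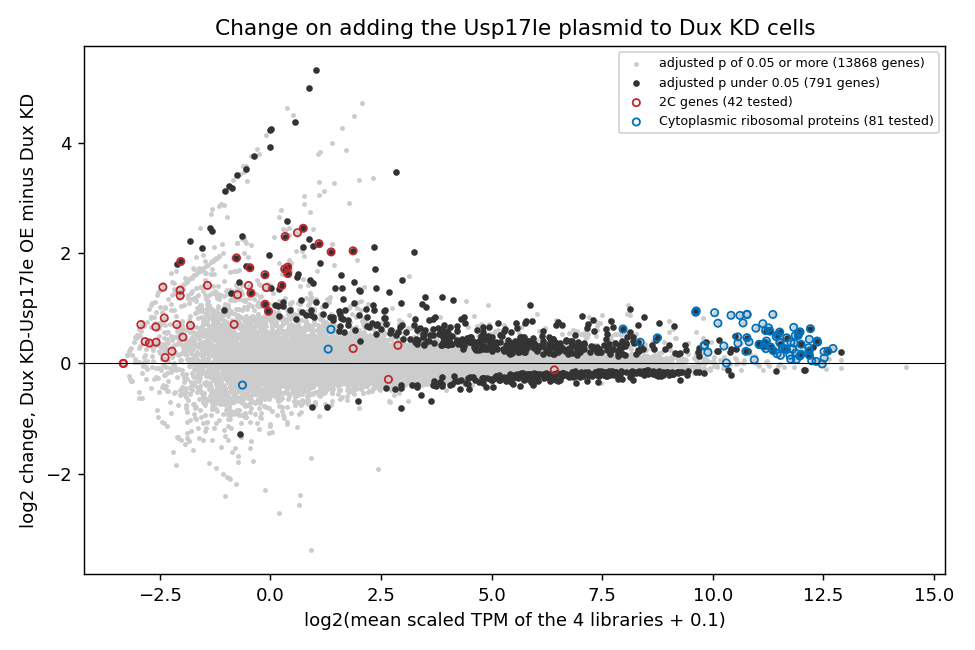
Log2 change of each gene (Dux KD-Usp17le OE minus Dux KD, y axis) against its mean level in the 4 libraries (x axis, log2 of scaled TPM plus 0.1); black points are the 791 genes that passed. The 2C genes (red rings) lie at low levels with the larger changes, and the cytoplasmic ribosomal protein genes (blue rings) at the highest levels with small positive changes.

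A set of 2C genes rose in Dux KD-Usp17le OE. Of 56 listed, 53 were in the table and 42 passed the filter, and of these 15 rose and none fell (35.7% higher, against 3.42% of all genes). The median log2 change of the 42 was 1.24, against −0.01 over all genes, and it was the same with the 3 genes at 0 reads in Dux KD set to their lower bound. Their levels were low throughout: 24 of the 42 reached 0.5 scaled TPM in both Dux KD-Usp17le OE libraries and 7 in both Dux KD libraries, and the others entered the test through Usp17le OE or other groups. Since members could pass the filter through a group in which they were high, the count and the median describe those that passed and are no support for a direction of the list. In bulk libraries such as these, more cells in the 2-cell-like state and more RNA per such cell cannot be told apart. Without Dux KD-Usp17le OE replicate 1 there were 9 calls, without Dux KD-Usp17le OE replicate 2 there were 10, and with only the compared groups in the fit there were 6.

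The members with the smallest adjusted p were 4 entries on chromosome 12. Gm5662 (88270635 to 88274497) had 5.32 and 6.24 scaled TPM in Dux KD-Usp17le OE, against 1.48 and 1.18 in Dux KD (log2 change 2.04 ± 0.13, adjusted p = 9.65e-05). Gm2016 (87874072 to 87877859) had 3.90 and 4.22, against 0.830 and 1.02, a 4.06-fold difference. The annotated pseudogene Gm5039 had 2.61 and 2.86 scaled TPM in Dux KD-Usp17le OE, against 0.417 and 0.419 in Dux KD, and Gm8300 had 3.70 and 3.11, against 0.783 and 0.580. The fitted differences of these 4 genes, picked for the smallest adjusted p, were 4.06-fold to 5.47-fold. All 4 were nevertheless lower than in WT, where Gm5662 had 10.7 and 10.6 scaled TPM, and in Usp17le OE it had 206 and 196.

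Zscan4 genes, which take part in telomere maintenance in embryonic stem cells and mark the 2-cell-like state, were tested for 5 members, of which Zscan4a, Zscan4d and Zscan4f rose. Zscan4d had 2.29 and 1.57 scaled TPM in Dux KD-Usp17le OE, against 0.539 and 0.454 in Dux KD (log2 change 1.75 ± 0.18, adjusted p = 0.00166). Zscan4f had 1.75 and 2.01, against 0.427 and 0.673 (log2 change 1.63 ± 0.18), and Zscan4a had 1.28 and 1.29, against 0.390 and 0.321 (log2 change 1.61 ± 0.15). Zscan4c had 2.30 and 2.28 in Dux KD-Usp17le OE, but 0.0858 and 1.05 in Dux KD, and with the spread between the Dux KD libraries it did not pass (adjusted p = 0.15). Zscan4b had 8 and 10 reads in Dux KD-Usp17le OE, against 0 and 4 in Dux KD, and did not pass either (log2 change 1.33 ± 0.47, adjusted p = 0.136). Zscan4d, which lacks the complete TGATTNAAT in the stretch shown above, and Zscan4f, which has it, had changes within 1 SE of each other.

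Among the other 2C genes, Tcstv3 had 1.05 and 0.984 scaled TPM in Dux KD-Usp17le OE, against 0.223 and 0.247 in Dux KD. The remaining called members were Gm13119, Gm4971, Arg2 (the mitochondrial arginase), Trim43a, Tmem92 and Gm12794, besides Usp17lb. Gm12794 had 5 and 12 reads in Dux KD-Usp17le OE and none in either Dux KD library, at least 6.80-fold higher when 3 reads are allowed over the Dux KD group. Its call was lost with 0.5 or 1 added before the log2 in place of 0.1, with a smooth trend over gene length removed, and without each of the 4 libraries in turn. The calls of Arg2, Trim43a and Tmem92 were lost with 1 added in place of 0.1 and without either Dux KD-Usp17le OE library. Zfp352, a 2C zinc finger gene, had 14 and 4 reads, against none in Dux KD, and did not pass (adjusted p = 0.203). Tcstv1 was at 0 reads in all 4 libraries. No member passed in the lower direction, and negative differences were seen for Nelfa (83 and 80.9 scaled TPM, against 85.1 and 92.9) and Zscan5b only. In 13 of the 15 called genes both Dux KD-Usp17le OE libraries were below both WT libraries, the exceptions being Trim43a and Gm12794. In all 15 both were below both Usp17le OE libraries. Members could enter the test through Usp17le OE, where they were high, and the share over all genes was not counted, so nothing is read from these counts.

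**Figure D2:**
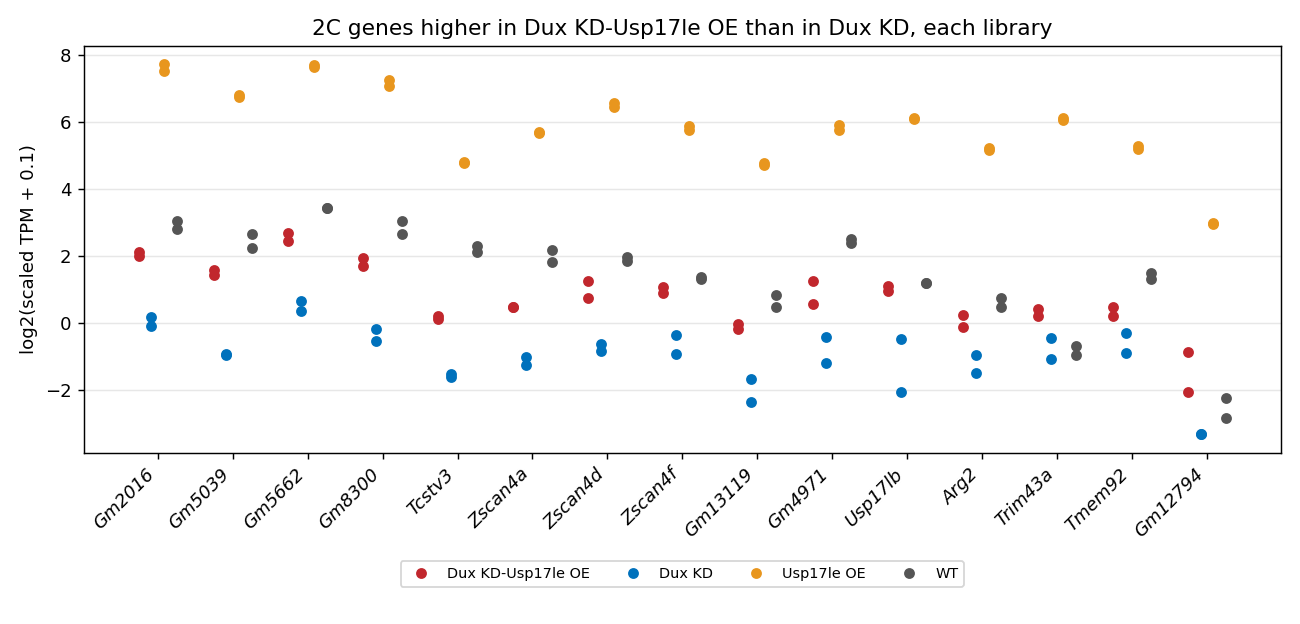
Level of the 15 called 2C genes in each library (y axis, log2 of scaled TPM plus 0.1; one point per library, 2 per group). The genes were picked for being higher in Dux KD-Usp17le OE (red) than in Dux KD (blue). Dux KD-Usp17le OE lies below WT (grey) in 13 of 15 and below Usp17le OE (orange) in all 15, and the share over all genes was not counted.

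Single 2C genes show how the response compared between the cell backgrounds. The change from Dux KD to Dux KD-Usp17le OE minus the change from WT to Usp17le OE differed from 0 for 8260 genes (56.3% of those tested), and 36 of the 42 2C genes were among them, all below 0. As 24 of the 42 reached the filter within the 4 libraries of Dux KD-Usp17le OE and Dux KD, and the others passed it through groups such as Usp17le OE in which they were high, the filter sets part of this count and its direction, and nothing is read from it for the list. For Gm2016 the changes were 2.02 and 4.70 (difference −2.68 ± 0.18, adjusted p = 1.3e-06), for Zscan4d 1.75 and 4.57, and for Usp17le 1.38 and 4.52 (difference −3.14 ± 0.56, adjusted p = 0.00131). The level of Usp17le RNA itself thus differed between the plasmid-treated groups, and the part of the hairpin and the part of the dose of Usp17le in these differences cannot be told apart. Trim43a had the largest difference among 2C genes with 1.05 and 1.23 scaled TPM in Dux KD-Usp17le OE and 0.372 and 0.631 in Dux KD, beside 66.1 and 69.4 in Usp17le OE and 0.414 and 0.521 in WT (difference −5.83 ± 0.31).

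Outside the 2C list, several of the genes with the largest differences moved in opposite directions in the 2 cell backgrounds. Acta2, smooth muscle actin, had 67.6 and 69.3 scaled TPM in Dux KD-Usp17le OE, against 40.03 and 40.7 in Dux KD, whereas it had 2.22 and 1.79 in Usp17le OE, against 60.8 and 56.6 in WT (difference 5.57 ± 0.14, adjusted p = 1.71e-09). Gadd45g, a growth arrest and DNA damage gene, had 14.2 and 16.9 in Dux KD-Usp17le OE, against 7.33 and 6.17 in Dux KD, and 2.01 and 2.60 in Usp17le OE, against 75.4 and 76.9 in WT (difference 6.19). Bnip3, a hypoxia-inducible mitophagy receptor, had 295 and 297 in Dux KD-Usp17le OE, against 238 and 229 in Dux KD, and 73.8 and 72.9 in Usp17le OE, against 661 and 657 in WT. Of 19 glycolytic enzyme genes tested 18 had different responses, against 56.3% of all genes. Their median log2 change was −0.08 on adding the plasmid to Dux KD cells and −1.94 on adding it to WT cells. Adm, the vasodilator peptide adrenomedullin, did not pass in Dux KD cells (21.7 and 23.8, against 13.6 and 16.4) but differed between the backgrounds by 6.63 ± 0.82, with 0.511 and 2.25 in Usp17le OE, against 79.8 and 75.7 in WT. Foxd3, a pluripotency forkhead factor, had 5.06 and 3.91 in Dux KD-Usp17le OE, against 4.71 and 4.96 in Dux KD, and 28.1 and 22.9 in Usp17le OE, against 0.444 and 0.538 in WT (difference −5.55 ± 0.22).

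**Figure D3:**
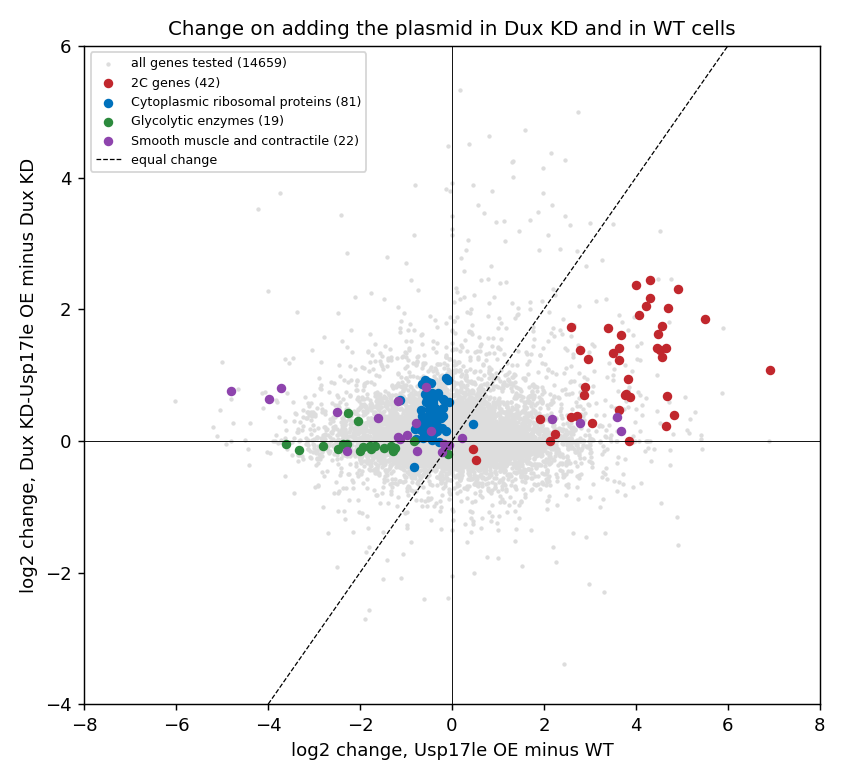
Log2 change on adding the plasmid in Dux KD cells (y axis) against that in WT cells (x axis) for all 14659 genes (grey) and 4 gene lists, with a dashed line at equal change. The 2C genes (red) lie right of the line and mostly above 0 on the y axis, the glycolytic enzyme genes (green) lie left of 0 and near 0 on the y axis, and the 2 axes share no library.

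Apart from the 2C genes, the abundant genes with the strongest support were few and changed moderately. Id2, an inhibitor of basic helix-loop-helix factors and a BMP target, had 22.1 and 25.8 scaled TPM in Dux KD-Usp17le OE, against 10.5 and 10.9 in Dux KD (log2 change 1.15 ± 0.08, adjusted p = 9.65e-05), still below the 56.5 and 62.3 of WT. Its relatives rose less, with Id1 at 123 and 128, against 103 and 97.8, and Id3 at 12.1 and 11.2, against 8.51 and 6.0005 (log2 change 0.70 ± 0.15, adjusted p = 0.0376). These 3 made up the higher calls among 29 tested genes of Nodal, activin and BMP signalling (10.3%, against 3.42% of all genes). The 1 lower call there (3.45%, against 1.97%) was Lefty2, a Nodal inhibitor. It had 27.5 and 27.8 scaled TPM in Dux KD-Usp17le OE, against 37.9 and 37.0 in Dux KD. The Lefty2 call was lost without each of the 4 libraries in turn. Id1 and Id3 lost theirs without either Dux KD-Usp17le OE library and without Dux KD replicate 2. Id1 also lost its call with a smooth trend over gene length removed.

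Plac8, a small cysteine-rich protein, had 167 and 175 scaled TPM in Dux KD-Usp17le OE, against 93.5 and 94.2 in Dux KD (log2 change 0.86 ± 0.06), and 276 and 258 in WT. Erdr1 had 26.8 and 26.8, against 15.3 and 14.3, and in WT 26.5 and 28.6. Abracl, an actin regulator, had 125 and 115, against 78.3 and 69.97, and Med21, a Mediator subunit, had 145 and 132, against 100 and 93.5. Mdm4, an inhibitor of p53, had 32.5 and 34.4 scaled TPM in Dux KD-Usp17le OE, against 21.5 and 23.7 in Dux KD, and 34.2 and 35.9 in WT. These 5 were picked for a small adjusted p, so the distance between their compared groups is largely set by the choice. The long noncoding RNA D7Ertd143e had 2.71 and 2.47 in Dux KD-Usp17le OE, against 0.656 and 0.405 in Dux KD, a 4.34-fold difference.

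In the list of smooth muscle and contractile genes 5 of 22 tested rose and none fell (22.7%, against 3.42% of all genes). They were Acta2, Myl9, Cnn1, Cyr61 and Tpm2, of which Cyr61 is not itself a contractile protein gene. Myl9, the regulatory light chain of myosin, had 55.4 and 64.5 scaled TPM in Dux KD-Usp17le OE, against 45.1 and 43.2 in Dux KD (log2 change 0.44 ± 0.08, adjusted p = 0.0151). The calls of Myl9, Cnn1, Cyr61 and Tpm2 were lost in at least 1 setting that left out a library, and those of Cyr61 and Tpm2 on TPM as deposited. Of the 5 calls 2 were kept without Dux KD-Usp17le OE replicate 1, 1 without Dux KD-Usp17le OE replicate 2, 3 without Dux KD replicate 1 and 1 without Dux KD replicate 2. A CArG box is the binding sequence of serum response factor, taken here strictly as CC, 6 bases of A or T, and GG. It was found in the promoters of 6 of 17 listed contractile genes with a sequence in the table (35.3%, against 1.63% of all promoters). Looser forms and sequence further from the start were not searched. The box is in capitals in the stretch upstream of Myl9, which is shown because it was the single one of the 5 risen genes found to hold this strict form.
Myl9, chr2:156775243-156775372, plus strand: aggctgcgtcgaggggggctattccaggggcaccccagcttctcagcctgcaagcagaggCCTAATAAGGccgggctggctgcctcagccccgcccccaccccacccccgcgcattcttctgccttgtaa
Immediate early genes, transcribed within minutes of a stimulus, showed 4 higher of 17 tested (23.5%) and none lower. Egr1 had 14.5 and 15.8 scaled TPM in Dux KD-Usp17le OE, against 8.86 and 8.57 in Dux KD (log2 change 0.79 ± 0.08, adjusted p = 0.00198). Fos had 17.4 and 14.7, against 9.14 and 9.16, and Jun 4.57 and 5.62, against 2.97 and 2.45. Fosb was near the filter, at 0.731 and 1.22, against 0.129 and 0.0959. Egr1 and Fos kept their calls without each library, while Jun and Fosb lost theirs without Dux KD-Usp17le OE replicate 2 or Dux KD replicate 2, and Fosb also without Dux KD-Usp17le OE replicate 1.

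Imprinted genes were higher for 6 of 21 tested (28.6%) and lower for none. Cdkn1c, a cyclin-dependent kinase inhibitor, had 7.38 and 8.17 scaled TPM in Dux KD-Usp17le OE, against 3.95 and 3.99 in Dux KD (log2 change 0.95 ± 0.11, adjusted p = 0.00282). Nnat had 9.82 and 11.1, against 5.56 and 4.199, and the noncoding RNA Meg3 had 2.06 and 2.19, against 0.901 and 0.894. Rian, Peg10 and H19 were the other calls. Of the 6 calls 2 were kept without Dux KD-Usp17le OE replicate 1, 1 without Dux KD-Usp17le OE replicate 2, 5 without Dux KD replicate 1 and 3 without Dux KD replicate 2, and Cdkn1c was kept in each. For the p53 pathway 5 of 30 targets were higher (16.7%) and none lower: Ccng1, Cd80, Trp53inp1, Ddit4 and Pmaip1. Ccng1, cyclin G1, had 177 and 176 scaled TPM in Dux KD-Usp17le OE, against 145 and 149 in Dux KD (log2 change 0.26 ± 0.04). The calls of Ccng1, Trp53inp1 and Pmaip1, and that of Rian, were lost on TPM as deposited. Of the 5 p53 target calls none was kept without Dux KD-Usp17le OE replicate 1 or without Dux KD replicate 2, 1 was kept without Dux KD-Usp17le OE replicate 2 and 3 without Dux KD replicate 1. Among hypoxia-inducible genes outside glycolysis 3 of 41 were higher (7.32%, against 3.42% of all genes), Bnip3, Fam162a and Ddit4, and 1 was lower (2.44%, against 1.97%), the glucose transporter gene Slc2a3. The neuronal genes Stmn2 and Gap43 were the 2 higher calls of 14 neural genes tested (14.3%, against 3.42% of all genes). Both calls were lost without Dux KD-Usp17le OE replicate 1, without Dux KD replicate 2, and with eBayes without its trend and robust options.

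**Figure D4:**
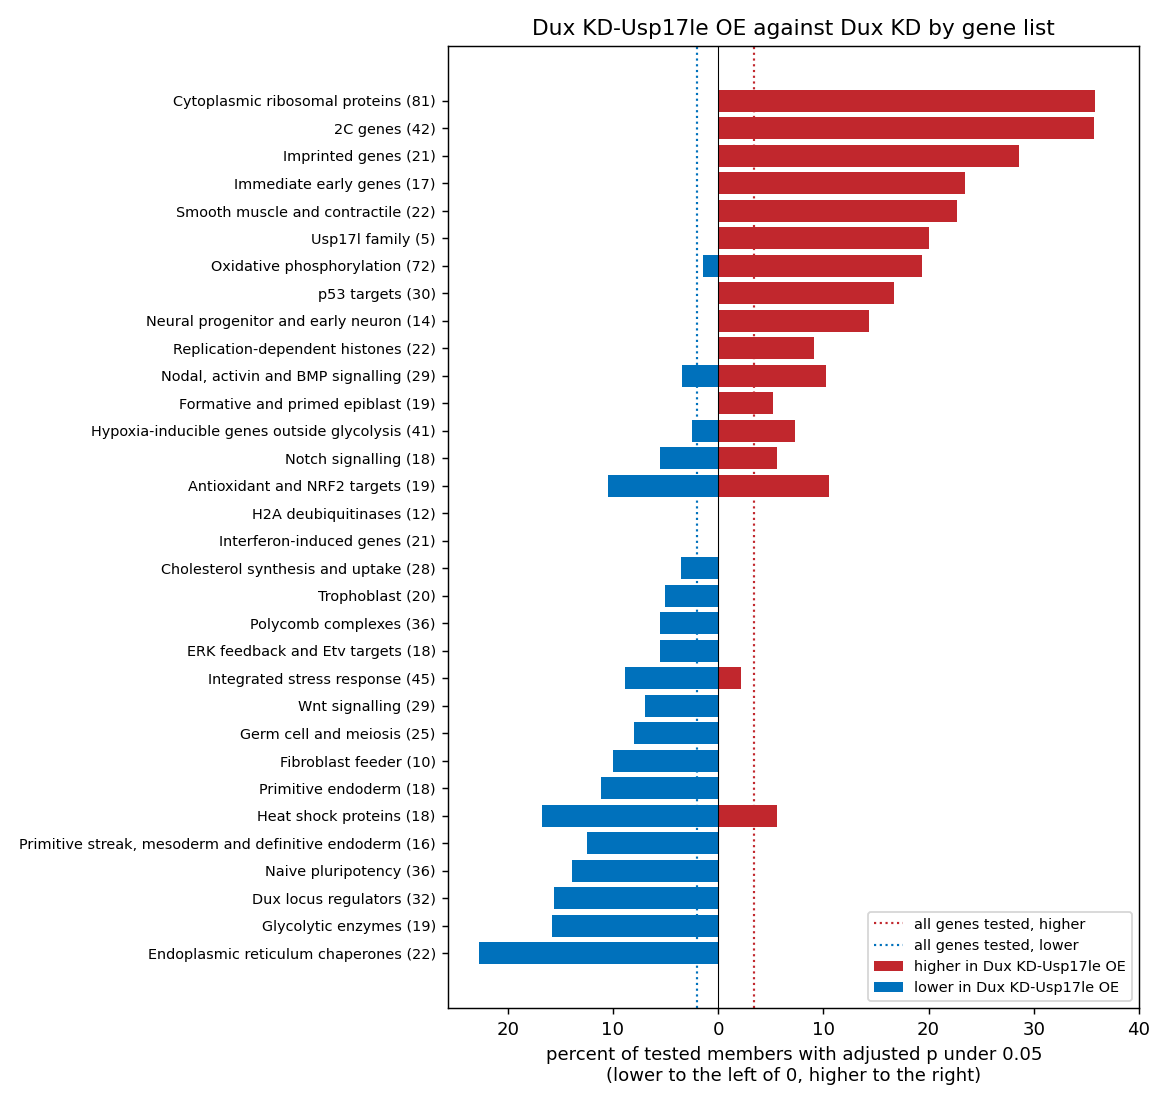
Percent of tested members that passed as higher (red, right) or lower (blue, left) in Dux KD-Usp17le OE relative to Dux KD, for the gene lists with at least 5 members tested. The number tested is in parentheses. Dotted lines give the share over all genes, 3.42% higher and 1.97% lower, and ribosomal protein, 2C and imprinted genes extend furthest right and endoplasmic reticulum chaperones furthest left.

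Cytoplasmic ribosomal protein genes rose slightly and in large number, 29 of 81 tested (35.8%), and none fell. Rpl12 had 5969 and 6006 scaled TPM in Dux KD-Usp17le OE, against 4728 and 4442 in Dux KD (log2 change 0.39 ± 0.04, adjusted p = 0.00126). Rpl13a had 2084 and 1973, against 1504 and 1433, and Rps3 2551 and 2492, against 2022 and 2034. The median over the 81 was 0.37. Genes of oxidative phosphorylation, the mitochondrial respiratory chain, were higher for 14 of 72 (19.4%, against 3.42% of all genes). They were lower for 1 (1.39%, against 1.97%), the ATP synthase gene Atp5b. Ndufb9, a complex I subunit, had 376 and 344 scaled TPM in Dux KD-Usp17le OE, against 287 and 262 in Dux KD. The calls of Ndufb9 and Atp5b were lost without Dux KD-Usp17le OE replicate 1 and without Dux KD replicate 2. That of Atp5b was also lost without Dux KD-Usp17le OE replicate 2. The ribosomal protein count was 3 without Dux KD-Usp17le OE replicate 1, 8 without Dux KD-Usp17le OE replicate 2, 8 without Dux KD replicate 2 and 53 without Dux KD replicate 1. Their median was −0.45 when the plasmid was added to WT cells, and 78 of the 81 differed between the backgrounds, against 56.3% of all genes.

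The change also followed the length of the gene. The median log2 change was 1.00 for the 247 genes of up to 200 bases, 0.25 for the 1284 genes over 400 and up to 1000 bases, 0.03 for the 3457 genes up to 2000 bases, −0.04 for the 5689 up to 4000 bases and −0.05 for the 3933 longer ones. Of the genes over 400 and up to 1000 bases 14.3% were higher and none lower, while of those over 4000 bases 0.61% were higher and 2.06% lower. Most ribosomal protein genes are in the short class: 23 of 59 were higher there (39%), beside 161 of 1225 other genes of that length (13.1%). Genes shorter than 1000 bases took 35.7% and 34.7% of TPM in Dux KD-Usp17le OE, 31.3% and 28.5% in Dux KD and 43.2% and 43.0% in WT. When a smooth trend over length was removed from each library, 17 ribosomal protein genes were higher in place of 29, 289 of all genes in place of 502, and 14 2C genes in place of 15. Rpl12 and Ndufb9 lost their calls in that setting, and Rpl13a and Rps3 kept theirs. The lowest log2 change over all alternatives was 0.045 for Rpl12 and 0.062 for Ndufb9. The source of the length trend was not tested.

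**Figure D5:**
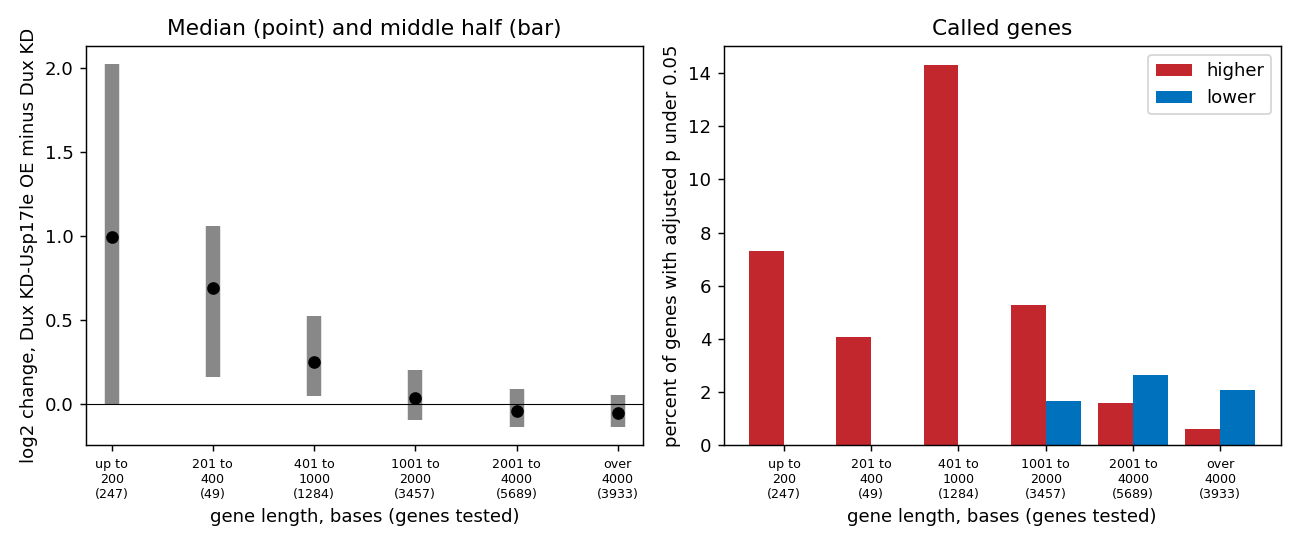
Left, median (point) and range between the quartiles (bar) of the log2 change (Dux KD-Usp17le OE minus Dux KD) by class of gene length, and right, percent of genes in each class that passed as higher (red) or lower (blue). The median is 1.00 in the shortest class and −0.05 in the longest, and lower calls are found only above 1000 bases.

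Short noncoding entries were among the largest rises. Snord2 had 14.1 and 11.9 scaled TPM in Dux KD-Usp17le OE, against 0.718 and 1.60 in Dux KD, from 24 and 15 reads against 1 and 3 (log2 change 3.47 ± 0.32, adjusted p = 0.00343). Snord35a had 8 and 7 reads in Dux KD-Usp17le OE and none in Dux KD, at least 5.60-fold higher when 3 reads are allowed over the Dux KD group. Snord2 lies within Eif4a2, Snord35a within Rpl13a, Snora70 within Rpl10 and Snord22 within Snhg1, and those host genes rose too, by 0.25, 0.47, 0.26 and 0.76 on the log2 scale. Snord73a lies within Rps3a1 and Mir6935 within Actg1, and these 2 host genes did not pass (adjusted p = 0.983 for Rps3a1 and 0.964 for Actg1). Rpph1, the RNA of ribonuclease P, had 3.20 and 2.99 scaled TPM in Dux KD-Usp17le OE, against 0.601 and 0.668 in Dux KD. The libraries were made from polyadenylated RNA, which does not select mature forms of such RNAs, and the counts were made without strand, so reads of host transcripts cannot be separated from these entries.

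The falls were shallower, and none was in a gene of up to 1000 bases. H2-M5, a nonclassical class I histocompatibility gene, had 9.85 and 8.996 scaled TPM in Dux KD-Usp17le OE, against 14.3 and 15.99 in Dux KD (log2 change −0.68 ± 0.09, adjusted p = 0.00446). Nid1, the basement membrane protein nidogen, had 53.5 and 52.99, against 68.7 and 70.03, and its relative Nid2 fell by 0.33 on the log2 scale. The basement membrane genes Sparc and Lamc1 fell by 0.21 and 0.22. They were the 2 lower calls of 18 primitive endoderm genes (11.1%, against 1.97% of all genes), none of which rose. The largest fall by the naming rule was that of Them5, a mitochondrial thioesterase, with 5.76 and 5.26 in Dux KD-Usp17le OE, against 9.14 and 10.4 in Dux KD. The 14 largest falls ranged from −0.81 to −0.43 and included Rapgef3, Hand1, Wnt7b, Smpdl3b, Slc11a1, Zc3hav1 and Ly75. Rapgef3, Hand1, Wnt7b and Slc11a1 lost their calls without each of the 4 libraries in turn. Them5, Smpdl3b, Zc3hav1 and Ly75 lost theirs without either Dux KD-Usp17le OE library. Creatine kinase Ckb had 552 and 549, against 670 and 691, and the receptor gene Kit 51.96 and 53.02, against 63.9 and 68.99.

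Regulators of the Dux locus were lower for 5 of 32 tested (15.6%, against 1.97% of all genes) and higher for none. They were Uhrf1 (191 and 190 scaled TPM in Dux KD-Usp17le OE, against 221 and 222 in Dux KD), the KAP1 gene Trim28 (843 and 848, against 930 and 975), L3mbtl2, Trp53 and Kdm1a, with log2 changes of −0.22 to −0.14. The Polycomb complexes repress transcription through marks on histones. Of 36 of their genes 2 were lower (5.56%, against 1.97% of all genes) and none higher. The lower genes were Jarid2 (119 and 116, against 140 and 138) and L3mbtl2. None of 12 H2A deubiquitinase genes passed in either direction. Naive pluripotency genes were lower for 5 of 36 (13.9%), L1td1, Pecam1, Utf1, Spp1 and Tfcp2l1, with L1td1 at 248 and 262 scaled TPM in Dux KD-Usp17le OE, against 306 and 297 in Dux KD. Endoplasmic reticulum chaperones were lower for 5 of 22 (22.7%), Pdia6, Calr, Hspa5, Hyou1 and Canx, by 0.18 or less. Glycolytic enzymes were lower for 3 of 19 (15.8%). The integrated stress response list was lower for 4 of 45 (8.89%) and higher for 1 (2.22%), Ddit4. Aars was at 395 and 403 scaled TPM in Dux KD-Usp17le OE, against 455 and 476 in Dux KD. The falls of these lists reached −0.31 on the log2 scale at most (Slc7a3), and each call named here was lost in at least 1 alternative. Without Dux KD-Usp17le OE replicate 1, none of the calls of these lists was kept.

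Further lists are given by their counts, to be read against 3.42% higher and 1.97% lower over all genes. There were 0 of 21 for interferon-induced genes, where no member passed in either direction. Formative and primed epiblast genes had 1 of 19 (Cldn6, higher, 5.26%) and trophoblast genes 1 of 20 (Hand1, lower, 5%). Fibroblast feeder genes had 1 of 10 (Fn1, lower, 10%) and ERK feedback genes 1 of 18 (Ccnd3, lower, 5.56%). The Hand1 call was lost without each of the 4 libraries in turn. Heat shock genes had 1 higher and 3 lower of 18 (16.7% lower), antioxidant genes 2 and 2 of 19 (10.5% each), Notch signalling genes 1 and 1 of 18, replication-dependent histones 2 and 0 of 22, Wnt signalling genes 0 and 2 of 29, mesoderm and endoderm genes 0 and 2 of 16 (12.5% lower), and germ cell genes 0 and 2 of 25. The calls of the Wnt signalling list and of the mesoderm and endoderm list were lost without each of the 4 libraries in turn. Those of the heat shock and antioxidant lists were lost without either Dux KD-Usp17le OE library and without Dux KD replicate 2. Of the 3 tested entries known to collect ribosomal RNA reads none passed.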

How the data were processed

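Polyadenylated RNA was sequenced, and per the labels and the study's methods the authors used Trim Galore for trimming, HISAT2 for alignment to mm10 and featureCounts at its default, unstranded setting for unique reads, and deposited TPM for 24370 gene symbols with gene lengths. Versions are not given in the sources used here. Multiplying TPM by length returned whole read numbers in 100% of cases within a tolerance of 0.01. Among values of 2 to 20 reads 77.2% were even, so mates may be counted separately, and the floor of 3 reads covers counting error only. Deposited TPM was divided by a median-of-ratios factor (14902 genes above 0 in all libraries), and genes with at least 0.5 in at least 2 libraries were fitted as log2(scaled TPM + 0.1) with limma 3.58.1 under R 4.3.3 with statmod 1.5.0. The model had 5 group means over 10 libraries, 5 residual degrees of freedom and the trend and robust options. Both comparisons were tested two-sided, and p was adjusted by Benjamini-Hochberg across the genes fitted. Fold changes are on the log2(scaled TPM + 0.1) scale, which understates low genes. The fit was tested on simulated data. There were 27 symbols turned into dates, kept in the fits and not named. Gene positions are from RefSeq GRCm38.p6, the assembly of mm10.

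The members and the 33 gene lists were chosen with earlier results of these data known. The genes named are the Usp17l genes and Dux, the 14 largest rises and falls with mean scaled TPM of at least 2 and no overlap, up to 4 called members of each list by adjusted p, the 8 largest differences between backgrounds, and the 10 smallest adjusted p in each direction above 20 scaled TPM. Further list members were named after their values were seen, and some results are not reported here. Alternatives were deposited TPM, pseudocounts of 1 and 0.5, other filters, a replicate block, only the compared groups, eBayes without its options, voom on recovered reads, removal of the length trend, and leaving out each library.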

Additional observations from a re-analysis of the deposited data

Results flagged for a closer look

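The change on adding the plasmid differed between Dux KD and WT cells for 8260 of 14659 genes, in 36 of 42 2C genes, 78 of 81 ribosomal protein genes and 18 of 19 glycolytic enzyme genes by the test of the difference itself, where the share over all genes was 56.3%. The 2C genes that passed the filter through Usp17le OE, where they were high, set part of their count. WT cells had neither transfection nor selection, so the response in WT cells includes both. The 8 largest differences on the log2 scale were Mir3072 (−6.90), Adm (6.63), Mir6948 (−6.49), Gadd45g (6.19), Ube2dnl1 (−6.05), Trim43a (−5.83), Acta2 (5.57) and Foxd3 (−5.55). Mir3072 lies within Mirg and had no reads in Dux KD-Usp17le OE, Dux KD and WT, with 17 and 21 reads in Usp17le OE. Mir6948 lies within Acin1 and had at most 6 reads in any of these libraries, so the sizes of these 2 differences depend on the pseudocount. Ube2dnl1 had 0.592 and 1.09 scaled TPM in Dux KD-Usp17le OE, against 1.45 and 2.53 in Dux KD, and 11.7 and 12.9 in Usp17le OE, against 0.157 and 0.573 in WT. In the libraries of the reverse order, labelled Usp17le OE-Dux KD and not used in the comparison, Usp17le averaged 8.92 scaled TPM (8.99 and 8.86), above the 2.17 and 0.790 of WT.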

How the results depend on the processing

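In place of 791 calls there were 1644 on TPM as deposited (424 higher, 1220 lower, 25.8% higher in place of 63.5%), 1754 with voom on the recovered reads (1010 lower, 42.4% higher), 522 without the filter (163 lower), 377 with the compared groups alone (322 higher, 55 lower) and 54 with eBayes without its trend and robust options (50 higher, 4 lower). With the length trend removed 289 genes were higher (47.5%). The count of 2C genes was 9 with plain eBayes and 6 with the compared groups alone, and that of ribosomal protein genes 0, 19 and, with the length trend removed, 17. Leaving out 1 library at a time gave 66 to 717 calls, 61 to 568 higher and 5 to 149 lower genes, 9 to 15 2C genes and 3 to 53 ribosomal protein genes. The difference between backgrounds stayed within 7412 to 8573 calls, but on TPM as deposited 26.3% of them were higher in place of 50.7%. The log2 change turned direction for Dnmt3l on TPM as deposited (−0.0058), and over the settings without 1 library it ranged from −0.16 to 0.7 for Alppl2, −0.10 to 0.87 for Dux, −0.076 to 0.018 for Fdps, −0.30 to 0.063 for Foxd3, −0.13 to 0.081 for Ifitm1, −0.45 to 0.11 for Rn45s and −0.66 to 0.077 for Zscan5b. With the replicate number as a block, 694 genes were called (475 higher, 219 lower), 15 2C genes, 35 ribosomal protein genes and 8207 differences. Same-numbered libraries did not deviate together (correlations of −0.0517 to 0.0403), so the numbers were not taken as pairs. The causes were not tested. With 2 libraries a group and few reads for the Usp17l genes and Dux, small changes in these could not be resolved.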
